A study of Mus musculus with 4 samples.

Results

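The leukocyte beta-2 integrins are described here by the RNA of 5 genes, Itgal, Itgam, Itgax, Itgad and Itgb2, in natural killer (NK) cells of mouse liver. They were taken by symbol from 21025 gene rows, and all 5 were among the 10047 genes with at least 1 RPKM (the reads of a gene divided by its length and by the depth of the library) in at least 2 of 4 libraries. The TRAIL+ group (2 libraries) held C57BL/6 liver cells sorted as TCRb- NK1.1+ NKp46+ TRAIL+ CD49b-. The CD49b+ group (2 libraries) held C57BL/6 liver cells sorted as TCRb- NK1.1+ NKp46+ TRAIL- CD49b+. All libraries therefore came from the same strain and organ, with no genotype or treatment contrast, and age, sex and the pooling of mice are not given in the labels. The series title concerns the need for Nfil3 in NK cell development, and the libraries compare the sorted subsets. The labels do not state whether the libraries of a group stem from different mice, and the p-values cover the spread among these libraries alone, which could be technical.

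An integrin is a pair of an alpha and a beta chain, and the beta-2 chain CD18, encoded by Itgb2, reaches the surface of leukocytes only when paired with 1 of 4 alpha chains. CD11a (Itgal) makes LFA-1, which binds ICAM proteins and holds the killer cell to its target; CD11b (Itgam) makes Mac-1, a receptor for ICAM-1, fibrinogen and complement fragment iC3b; CD11c (Itgax) makes the complement receptor known from dendritic cells; and CD11d (Itgad) makes a receptor best known from macrophages. In mouse NK cells, surface CD11b is a customary marker of maturation. The comparison asks which alpha partner accompanied Itgb2 in each subset. In bulk RNA, fewer cells of a type and less RNA per cell cannot be told apart, and a transcript share is not a share of surface protein.

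The libraries rested on 3786497 to 4232967 reads, as read from the steps in which low RPKM values move. The sorting genes followed the labels: Tnfsf10, which encodes TRAIL, stood at 208 and 189 RPKM in TRAIL+ cells, against 7.26 and 6.94 RPKM in CD49b+ cells, and Itga2, which encodes CD49b, at 5.26 and 1.55 RPKM in TRAIL+ cells, against 52.1 and 37.0 RPKM in CD49b+ cells. Ncr1 (NKp46) stood between 978 and 1114 RPKM and Klrb1c (NK1.1) between 901 and 1253 RPKM in every library. Myeloid cells also express Itgam and Itgax. The 12 monocyte and Kupffer cell markers summed to 121 and 54.0 RPKM in TRAIL+ libraries and 659 and 609 RPKM in CD49b+ libraries, of which Ly6c2, an antigen gene that NK cells also express, held 16.2 and 30.2 RPKM in TRAIL+ cells and 518 and 593 RPKM in CD49b+ cells. Without Ly6c2 the other 11 summed to 105 and 23.8 RPKM in TRAIL+ libraries and 140 and 15.5 RPKM in CD49b+ libraries, Marco was at 0, and the macrophage lysozyme gene Lyz2 stood at 81.9 and 9.21 RPKM in TRAIL+ cells and 122 and 8.87 RPKM in CD49b+ cells. Lyz2 made up most of that sum in the libraries numbered 1, which carried more of it in both groups. Ly6c2 was called lower in TRAIL+ cells (log2 fold change -4.59 ± 0.31, SE; limma adjusted p = 0.00118). C1qa, a complement gene of macrophages, stood at 5.21 and 4.38 RPKM in TRAIL+ cells, against 1.31 and 0 RPKM in CD49b+ cells, and did not pass (limma adjusted p = 0.0549). Clec4f, a Kupffer cell gene, stood at 0.918 and 1.32 RPKM in TRAIL+ cells, against 0.196 and 0 RPKM in CD49b+ cells, and was below the minimum for testing. The macrophage gene Cd68 went the other way, at 5.09 and 3.13 RPKM in TRAIL+ cells, against 7.69 and 5.77 RPKM in CD49b+ cells. It did not pass either (limma adjusted p = 0.321). The 8 neutrophil markers with a row, led by S100a9 and S100a8, summed to 21.2 and 4.20 RPKM in TRAIL+ libraries and 22.5 and 0.644 RPKM in CD49b+ libraries, with Elane at 0. The 8 dendritic cell markers, mostly H2-Aa and H2-Ab1, summed to 114 and 48.3 RPKM in TRAIL+ libraries and 93.8 and 25.5 RPKM in CD49b+ libraries, with Flt3 at 0.467 and 0 RPKM in TRAIL+ cells and 0.064 and 0 RPKM in CD49b+ cells. Of the 3 dendritic cell markers tested, 1 was called, Xcr1, a chemokine receptor gene of cross-presenting dendritic cells, at 2.98 and 3.20 RPKM in TRAIL+ cells, against 0.106 and 0.0571 RPKM in CD49b+ cells (limma adjusted p = 0.00718). Of the tested markers of other cells, 4 of 4 T cell genes (Cd3d and Cd3e the most abundant) and 1 of 4 hepatocyte genes (Trf, ahead of Alb) were higher in TRAIL+ cells, and 0 of 3 B cell genes (Cd79b and Cd79a) and 0 of 1 endothelial gene (Pecam1) were called. The T cell gene Cd5 was below the minimum for testing and overlapped, at 0.590 and 0 RPKM in TRAIL+ cells and 0.454 and 0.122 RPKM in CD49b+ cells. The T cell markers summed to 66.5 and 125 RPKM in TRAIL+ libraries and 14.4 and 14.2 RPKM in CD49b+ libraries. Their part in the results below was not tested.

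Of the 5 genes, Itgax and Itgad were higher and Itgam was lower in TRAIL+ cells, and Itgal and Itgb2 did not pass the test. Over all tested genes 4.76% were called higher and 3.86% lower, or 8.62% in either direction (limma on log2(RPKM + 1), Benjamini-Hochberg adjusted p threshold 0.05, 2 libraries per group). The libraries of the subsets were apart in the 4 genes other than Itgal, as in 46.8% of all genes tested. The median log2 fold change of the 5 genes was -0.53, beside 0.00499 over all genes tested. With 5 genes chosen by name after earlier results of these data were known, these shares describe the family and are not a test of it.

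**Figure D1:**
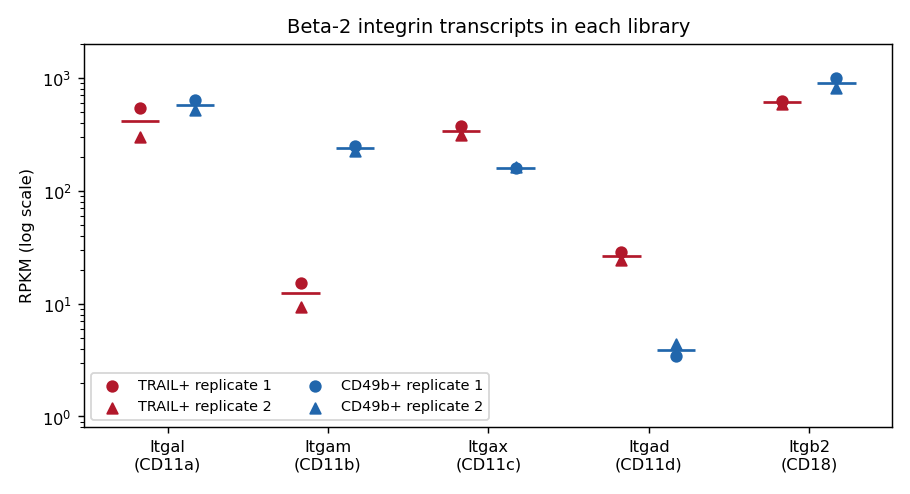
RPKM of the 5 beta-2 integrin genes on a log axis, with 1 point per library (circles, replicate 1; triangles, replicate 2) and a line at the mean of each group; TRAIL+ is red and CD49b+ blue. The Itgam points lie at 9.25 to 15.4 RPKM in TRAIL+ cells and 224 to 252 RPKM in CD49b+ cells, Itgax and Itgad run the other way, and the Itgal points overlap.

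Itgb2, the shared beta chain, stood at 628 and 589 RPKM in TRAIL+ cells, against 1004 and 811 RPKM in CD49b+ cells. Both TRAIL+ libraries lay below both CD49b+ libraries. The log2 fold change on the log2(RPKM + 1) scale was -0.57 ± 0.22 (SE), with a 95% interval of -1.12 to -0.02, and it did not pass the test (limma adjusted p = 0.237). After a length correction that was added once the data had been seen, it passed (-0.59 ± 0.14, limma adjusted p = 0.0427). By its mean over the 4 libraries, Itgb2 ranked 58th in level among the genes tested, above every alpha chain.

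Itgal, the LFA-1 alpha chain, stood at 537 and 297 RPKM in TRAIL+ cells, against 634 and 523 RPKM in CD49b+ cells. TRAIL+ replicate 1 lay inside the range of the CD49b+ libraries and TRAIL+ replicate 2 below it, so the groups overlapped. The log2 fold change was -0.53 ± 0.33 (SE), and its 95% interval ran from -1.34 to 0.29, so that both a decrease and a small increase lie inside it (limma adjusted p = 0.491). The TRAIL+ libraries differed from each other by 1.81 times in Itgal, and 9.51% of tested genes differed by at least as much between them. Library 1 had relatively more RPKM in long genes: across genes with a length, the difference between TRAIL+ replicates 1 and 2 went with length at a Spearman rho of 0.557, and that between CD49b+ replicates 1 and 2 at 0.340, as a description of these libraries. Itgal passed the test as lower without TRAIL+ replicate 1 (-0.95 ± 0.22, limma adjusted p = 0.0285), where the lone TRAIL+ library is assumed to vary like the CD49b+ ones, and without TRAIL+ replicate 2 its log2 fold change was -0.10 ± 0.22. The value thus rests on the gap between the TRAIL+ libraries.

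Itgam, the Mac-1 alpha chain, showed the widest difference of the 5 genes. It stood at 15.4 and 9.25 RPKM in TRAIL+ cells, against 252 and 224 RPKM in CD49b+ cells, from 295 and 165 reads in TRAIL+ libraries and 5021 and 4144 reads in CD49b+ libraries. Every CD49b+ library was many times above every TRAIL+ library. The ratio of means was 19.3 in favour of CD49b+ cells, and the log2 fold change, -4.20 ± 0.26 (SE, with a limma adjusted p of 0.000929), was the 22nd most negative among the genes tested. It passed under every alternative run, from -4.54 to -3.86 with 1 library left out. Of the monocyte and Kupffer cell markers, Ly6c2 and Cd68 stood lower in both TRAIL+ libraries, as Itgam did, and only Ly6c2 was called. C1qa, Clec4f and Timd4 went the other way. Csf1r, Adgre1, C1qb, Vsig4, Cd14 and Lyz2 overlapped between the subsets, and Lyz2 differed more between replicate numbers than between subsets. In TRAIL+ replicate 1, where Lyz2 was higher than in TRAIL+ replicate 2, Itgam was 1.66 times its level in replicate 2. Itgal was 1.81 times its level there, and TRAIL+ replicate 1 had relatively more RPKM in long genes, as given above. In CD49b+ replicate 1, Itgam was 1.13 times its level in CD49b+ replicate 2, while Lyz2 stood at 122 and 8.87 RPKM in these libraries. The part of myeloid cells in the Itgam levels of either subset was not tested.

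Itgax, the CD11c chain, stood at 373 and 309 RPKM in TRAIL+ cells, against 159 and 161 RPKM in CD49b+ cells. Both TRAIL+ libraries exceeded both CD49b+ libraries, which lay within 2 RPKM of their mean. The ratio of means was 2.13 and the log2 fold change 1.08 ± 0.18 (SE; limma adjusted p = 0.0220). Itgax no longer passed when CD49b+ replicate 1 (adjusted p = 0.335) or CD49b+ replicate 2 (adjusted p = 0.297) was left out, where the lone CD49b+ library is assumed to vary like the TRAIL+ ones, and its log2 fold change was then 1.07 and 1.09. The sums of the dendritic cell markers, given above, overlapped between the subsets. Xcr1 was higher in TRAIL+ cells, and C1qa, Clec4f and Timd4 stood higher in both TRAIL+ libraries than in either CD49b+ library. Cd68 and the dendritic cell gene Zbtb46 went the other way. Zbtb46 stood at 0.532 and 0.531 RPKM in TRAIL+ cells, against 1.17 and 0.944 RPKM in CD49b+ cells, and was not tested. The dendritic cell genes Clec9a, Siglech, Flt3, Cd209a, H2-Aa and H2-Ab1 overlapped between the subsets. Clec9a stood at 0.211 and 0 RPKM in TRAIL+ cells, against 0.407 and 0 RPKM in CD49b+ cells, and was not tested. The macrophage markers C1qb, Csf1r and Adgre1 overlapped as well. The part of dendritic cells and macrophages in the Itgax difference was not tested.

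The start regions of Itgam and Itgax are shown because these neighbouring genes on chromosome 7 went opposite ways. Each window runs from 250 bases before to 50 after the gene's start on the plus strand of GRCm38.p6 (RefSeq), chr7:128062390-128062689 for Itgam and chr7:128129300-128129599 for Itgax, in a build later than the mm9 used by the authors. Capitals mark matches on either strand to the PU.1 core GAGGAA, the RUNX core TGTGGT, the AP-1 element TGANTCA, the T-box half-site GGTGTGA or the GC box GGGCGG. PU.1 is a myeloid and lymphoid ETS factor, RUNX proteins act in lymphocyte development, and T-box factors include T-bet and Eomes of NK cells.
Itgam start region: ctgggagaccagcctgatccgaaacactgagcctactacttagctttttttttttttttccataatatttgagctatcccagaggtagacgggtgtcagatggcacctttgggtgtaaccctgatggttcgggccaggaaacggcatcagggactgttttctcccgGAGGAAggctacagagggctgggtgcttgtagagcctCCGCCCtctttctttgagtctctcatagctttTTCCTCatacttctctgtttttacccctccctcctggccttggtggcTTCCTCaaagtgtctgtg
Itgax start region: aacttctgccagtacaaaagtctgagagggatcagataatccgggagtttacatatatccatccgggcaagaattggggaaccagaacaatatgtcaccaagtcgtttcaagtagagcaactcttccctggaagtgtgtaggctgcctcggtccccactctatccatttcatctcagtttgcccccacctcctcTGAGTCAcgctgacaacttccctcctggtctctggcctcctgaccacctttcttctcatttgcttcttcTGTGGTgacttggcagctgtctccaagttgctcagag
The Itgam window held 3 PU.1 cores, beginning at bases -84, -15 and 33 from the start, and 1 GC box at -47, and the Itgax window held 1 AP-1 element at -56 and 1 RUNX core at 14. The matches of these motifs did not overlap each other, and the palindromic AP-1 element was read on both strands. Of 32544 start windows of the same length, 28.1% held a PU.1 core, 35.9% a GC box, 7.79% an AP-1 element, 16.7% a RUNX core and 4.0% a T-box half-site, which neither window held. A match describes these letters only and is not evidence of binding.

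Itgad, the CD11d chain, had the larger fold change of the 2 higher genes. It was the rarest alpha chain in CD49b+ cells, whereas in both TRAIL+ libraries Itgam was rarer. It stood at 28.8 and 24.3 RPKM in TRAIL+ cells, against 3.401 and 4.41 RPKM in CD49b+ cells, from 481 and 377 reads in TRAIL+ libraries and 59 and 71 reads in CD49b+ libraries. The groups were well apart. The ratio of means was 6.81 and the log2 fold change 2.49 ± 0.21 (SE; limma adjusted p = 0.00264), and it passed under every alternative run, from 2.35 to 2.64 with 1 library left out.

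Itgad and Itgax lie side by side and are close copies, so reads could be assigned to either. Of the 36-base words in the annotated Itgad transcripts (GENCODE M21), 473 of 3930, or 12.04%, also occur in Itgax, whereas Itgad shared 0 with Itgam, Itgal or Itgb2. The transcripts compared were identical over 7 runs of 40 to 188 bases, all within both coding sequences. The longest run, at bases 1274 to 1461 of the Itgax transcript and 1351 to 1538 of the Itgad transcript, is given to show how far a read could fail to tell the genes apart.
Itgax and Itgad shared run: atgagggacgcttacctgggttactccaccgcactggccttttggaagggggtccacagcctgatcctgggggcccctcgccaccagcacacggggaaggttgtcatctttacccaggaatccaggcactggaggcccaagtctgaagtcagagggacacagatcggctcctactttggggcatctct
Itgad stood at 7.73% and 7.86% of the Itgax RPKM in TRAIL+ cells, against 2.14% and 2.73% in CD49b+ cells. How the authors' counting treated reads with several matches is not given in the sources used here. The Itgad level is therefore uncertain, and the part of Itgax reads in it was not tested. C1qa and Clec4f, the macrophage genes given above, stood higher in both TRAIL+ libraries as Itgad did. Clec4f rested on only 9 and 12 reads in TRAIL+ libraries and 2 and 0 reads in CD49b+ libraries. Cd68 stood lower in both TRAIL+ libraries, from 21 and 12 reads, against 33 and 23 reads in CD49b+ libraries. Timd4, also of the Kupffer cell list, stood at 0.112 and 0.363 RPKM in TRAIL+ cells, from 1 and 3 reads, against 0 and 0 RPKM in CD49b+ cells. C1qb, Csf1r, Adgre1 and Vsig4 overlapped between the subsets. The part of macrophages in the Itgad difference was not tested.

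The make-up of the alpha chains turned over between the subsets while Itgal was the leading chain in 3 of 4 libraries. Of the summed RPKM of the 4 alpha chains, Itgal held 56.3% and 46.4% in TRAIL+ cells, against 60.5% and 57.3% in CD49b+ cells. Itgax held 39.1% and 48.3% in TRAIL+ cells, against 15.1% and 17.7% in CD49b+ cells. These shares of Itgax did not overlap, and in TRAIL+ replicate 2 Itgax was slightly above Itgal. Itgam held 1.61% and 1.45% in TRAIL+ cells, against 24.03% and 24.52% in CD49b+ cells. Itgad held 3.02% and 3.797% in TRAIL+ cells, against 0.325% and 0.483% in CD49b+ cells. The second partner was thus Itgax in 1 TRAIL+ library and Itgal in the other, and Itgam in both CD49b+ libraries. With 2 against 2 libraries the smallest exact permutation p is 0.333, so the shares are given without a test.

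**Figure D2:**
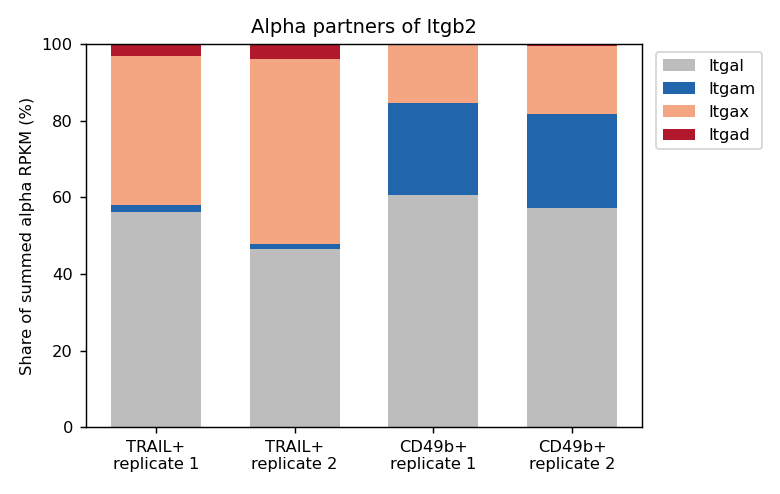
Stacked bars of the share (%) of each alpha chain in the summed RPKM of Itgal, Itgam, Itgax and Itgad, 1 bar per library. Itgam fills 24.03% and 24.52% of the CD49b+ bars and 1.61% and 1.45% of the TRAIL+ bars, where Itgax fills 39.1% and 48.3%.

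Itgax stood at 24.3 and 33.4 times the Itgam level in TRAIL+ cells, against 0.630 and 0.722 times in CD49b+ cells. The summed RPKM of the alpha chains was 954 and 640 in TRAIL+ cells, against 1048 and 912 in CD49b+ cells. Divided by Itgb2, the sum came to 1.52 and 1.09 in TRAIL+ cells, against 1.04 and 1.12 in CD49b+ cells. That ratio overlapped between the groups, and its spread between TRAIL+ libraries followed Itgal, which stood at 0.855 and 0.504 times Itgb2 in TRAIL+ cells, against 0.631 and 0.644 times in CD49b+ cells. The length behind the authors' Itgal values was worked out as 3923 bases, against 5222 bases of its annotated transcript, while for the other 4 genes the 2 lengths were close. With annotated lengths, chosen after seeing the data, Itgal held 49.1% and 39.3% of the alpha sum in TRAIL+ cells, against 53.3% and 50.03% in CD49b+ cells, and Itgam 1.89% and 1.65% in TRAIL+ cells, against 28.5% and 28.8% in CD49b+ cells.

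The order of mean RPKM also differed by subset. In TRAIL+ cells it ran Itgb2, Itgal, Itgax, Itgad and Itgam, with Itgal and Itgax overlapping between libraries and each of the other neighbours apart. With annotated lengths, as given above, Itgax came before Itgal by the TRAIL+ means, so the order of Itgal and Itgax there depends on the length used. In CD49b+ cells it ran Itgb2, Itgal, Itgam, Itgax and Itgad, with all neighbours apart in both libraries. Itgam was thus the last of the 5 in TRAIL+ cells and the third in CD49b+ cells.

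**Figure D3:**
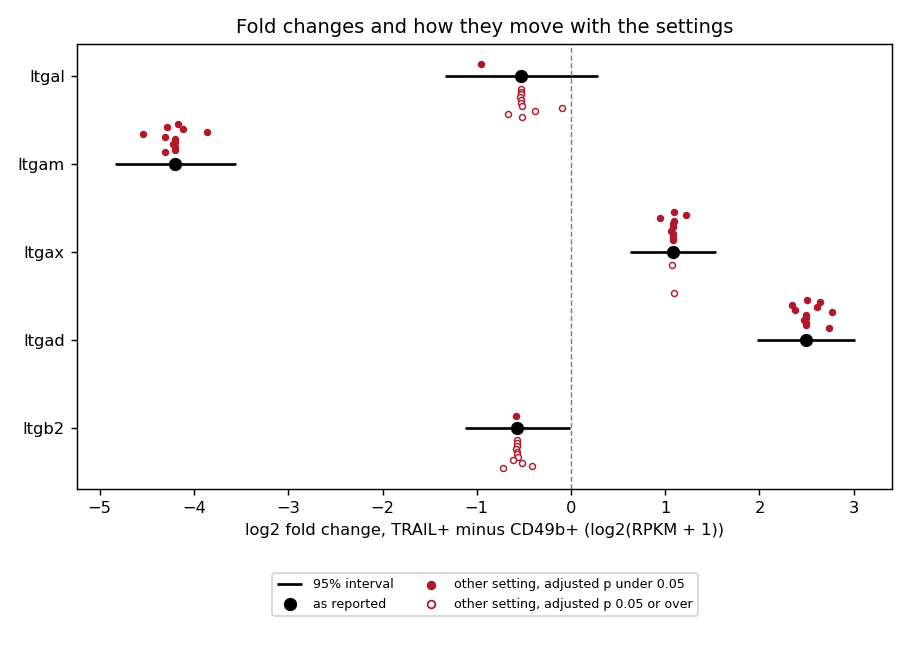
Log2 fold changes (TRAIL+ minus CD49b+) of the 5 genes: black points are the values on log2(RPKM + 1) with their 95% intervals, and small points the values under the other settings, filled where the adjusted p was under 0.05. The voom setting is on log2 reads relative to library depth. Itgam and Itgad are filled throughout, Itgax is open where a CD49b+ library was left out, and Itgal and Itgb2 are each filled once.

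Itgam, Itgax and Itgad follow each other on chromosome 7, Itgal lies apart on the same chromosome, and Itgb2 is on chromosome 10. The next protein-coding genes around the 3-gene block did not pass the test. Pycard, the inflammasome adaptor gene before the block, stood at 45.0 and 64.1 RPKM in TRAIL+ cells, against 91.7 and 101 RPKM in CD49b+ cells (log2 fold change -0.83 ± 0.22, SE; limma adjusted p = 0.0856), and Trim72 between it and Itgam was listed at 0 in every library. Behind the block, Cox6a2, a cytochrome oxidase subunit gene, stood at 8.53 and 10.8 RPKM in TRAIL+ cells, against 8.21 and 6.53 RPKM in CD49b+ cells (limma adjusted p = 0.507), and 9130023H24Rik at 3.15 and 4.64 RPKM in TRAIL+ cells, against 2.90 and 3.41 RPKM in CD49b+ cells (limma adjusted p = 0.747). Around Itgal, the genes Dctpp1, Sephs2, Zfp768 and Zfp747 had limma adjusted p-values of 0.209 to 0.998, and around Itgb2, Fam207a, Pttg1ip and Sumo3 had 0.522 to 0.989 (Gm51791 was not analysed here). The order was read from RefSeq on GRCm38.p6.

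**Figure D4:**
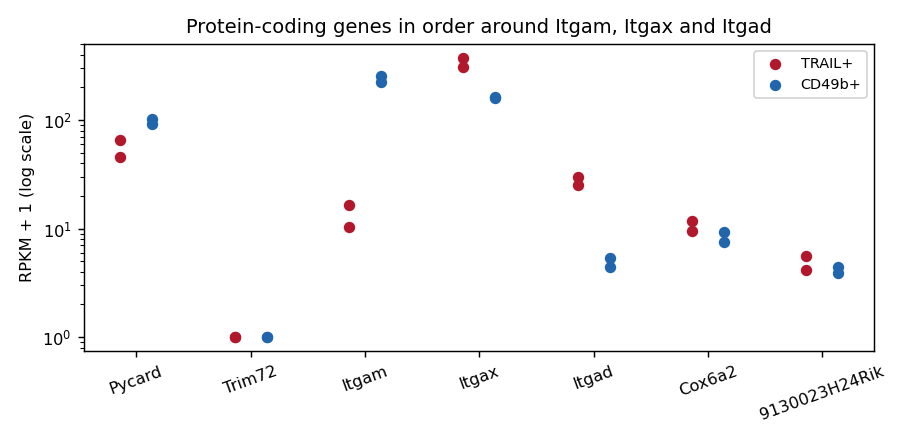
RPKM + 1 on a log axis for the protein-coding genes in chromosomal order around Itgam, Itgax and Itgad, 1 point per library, TRAIL+ red and CD49b+ blue. Itgam is lower in TRAIL+ cells, Itgax and Itgad are higher, and the points of Cox6a2 and 9130023H24Rik lie close together or overlap.

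Genes for known ligands of these integrins were mostly near 0 in the sorted cells. Of 19 listed, 6 were tested, 0 were called higher, 1 was called lower and 5 did not pass, with a median log2 fold change of -0.10. As 8.62% of all genes tested were called in either direction, 1 call among 6 genes does not set the ligands apart. Icam2, a ligand of LFA-1 also made by lymphocytes, stood at 35.1 and 50.5 RPKM in TRAIL+ cells, against 90.9 and 97.0 RPKM in CD49b+ cells. Its log2 fold change was -1.14 ± 0.21 (SE; limma adjusted p = 0.0326), a call lost without CD49b+ replicate 1 (adjusted p = 0.167), without CD49b+ replicate 2 (0.214) and with no RPKM minimum (0.0591). Thy1, a surface glycoprotein reported as a Mac-1 ligand, was the most abundant at 262 and 322 RPKM in TRAIL+ cells, against 206 and 242 RPKM in CD49b+ cells (limma adjusted p = 0.397). Icam1, the main LFA-1 ligand, named after its value was seen, stood at 126 and 105 RPKM in TRAIL+ cells, against 130 and 120 RPKM in CD49b+ cells, with a 95% interval of the log2 fold change of -0.55 to 0.32.

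Genes that switch integrins on or bind their tails all passed the minimum, and 4 of 20 were called, 1 higher and 3 lower in TRAIL+ cells, with a median log2 fold change of -0.21. Beside this, 4.76% of all genes tested were called higher and 3.86% lower, with a median of 0.00499. Flna, the filamin that binds the beta-2 tail and competes with talin there, stood at 83.6 and 48.7 RPKM in TRAIL+ cells, against 433 and 311 RPKM in CD49b+ cells (log2 fold change -2.51 ± 0.31, SE; limma adjusted p = 0.00837). Rasgrp2, an exchange factor that loads Rap1 with GTP, stood at 12.7 and 14.6 RPKM in TRAIL+ cells, against 54.0 and 43.0 RPKM in CD49b+ cells (-1.75 ± 0.19; limma adjusted p = 0.00533). Cyth1, cytohesin-1, which binds the tail of CD18, stood at 36.7 and 30.5 RPKM in TRAIL+ cells, against 61.5 and 58.6 RPKM in CD49b+ cells (-0.82 ± 0.17; limma adjusted p = 0.0433). The Cyth1 call was lost with no RPKM minimum (adjusted p = 0.0586), with a constant prior (0.0652), without CD49b+ replicate 1 (0.424) and without CD49b+ replicate 2 (0.335).

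Cd226, a receptor that associates with LFA-1, was the higher member, at 158 and 165 RPKM in TRAIL+ cells, against 36.9 and 45.0 RPKM in CD49b+ cells (1.96 ± 0.17; limma adjusted p = 0.00287). The most abundant gene of the list was the scaffold gene Rack1, at 1012 and 1671 RPKM in TRAIL+ cells, against 1294 and 1652 RPKM in CD49b+ cells, and it did not pass (limma adjusted p = 0.874). The core activators, named after their values were seen, did not pass either. Fermt3, the kindlin of blood cells, stood at 123 and 114 RPKM in TRAIL+ cells, against 128 and 120 RPKM in CD49b+ cells, and Tln1, talin-1, at 190 and 55.5 RPKM in TRAIL+ cells, against 248 and 121 RPKM in CD49b+ cells. For Tln1, a long gene, the libraries numbered 1 and 2 differed more than the subsets.

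Among the other integrin chains, 21 of 22 listed genes had a row and 10 were tested, of which 3 were higher, 5 were lower and 2 did not pass, with a median log2 fold change of -0.27. The shares among all genes tested were 4.76% higher and 3.86% lower. The 5 lower genes include the gate gene Itga2, so this count is partly set by the sort. Itga1 stood at 76.7 and 37.4 RPKM in TRAIL+ cells, against 0.747 and 1.396 RPKM in CD49b+ cells, and the paired chains Itgav and Itgb3 at 14.5 and 21.3 RPKM and 16.5 and 18.6 RPKM in TRAIL+ cells, against 6.04 and 8.004 RPKM and 6.32 and 7.64 RPKM in CD49b+ cells. Itga4 stood at 26.2 and 19.5 RPKM in TRAIL+ cells, against 214 and 206 RPKM in CD49b+ cells, and Itga6 at 3.42 and 1.87 RPKM in TRAIL+ cells, against 9.38 and 8.17 RPKM in CD49b+ cells. Itgav lay near the threshold (limma adjusted p = 0.0482) and did not pass under 8 of 12 alternatives. The gate gene Itga2, given above, was the most negative of the list, and its direction was set by the sort. Itgb7, the most abundant chain of the list, stood at 537 and 587 RPKM in TRAIL+ cells, against 352 and 380 RPKM in CD49b+ cells and did not pass (0.62 ± 0.19, SE; limma adjusted p = 0.132). Itgb1, named after its value was seen, was lower at 217 and 188 RPKM in TRAIL+ cells, against 448 and 452 RPKM in CD49b+ cells (limma adjusted p = 0.0168). Without either CD49b+ library, the calls of Itga1, Itga2 and Itga4 were kept and those of Itgb1 (adjusted p = 0.259 without replicate 1 and 0.253 without replicate 2), Itga6 (0.176 and 0.107), Itgb3 (0.207 and 0.107), Itgav (0.312 and 0.122) and Itga5 (0.136 and 0.112) were lost. With no RPKM minimum Itga6 did not pass either (adjusted p = 0.0777). Itgb2 exceeded every other beta chain in each library, by 589 against 587 RPKM of Itgb7 in TRAIL+ replicate 2. Itgb2l, a close relative of Itgb2, stood at 0.0932 and 0 RPKM in TRAIL+ cells and 0 and 0.0965 RPKM in CD49b+ cells.

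**Figure D5:**
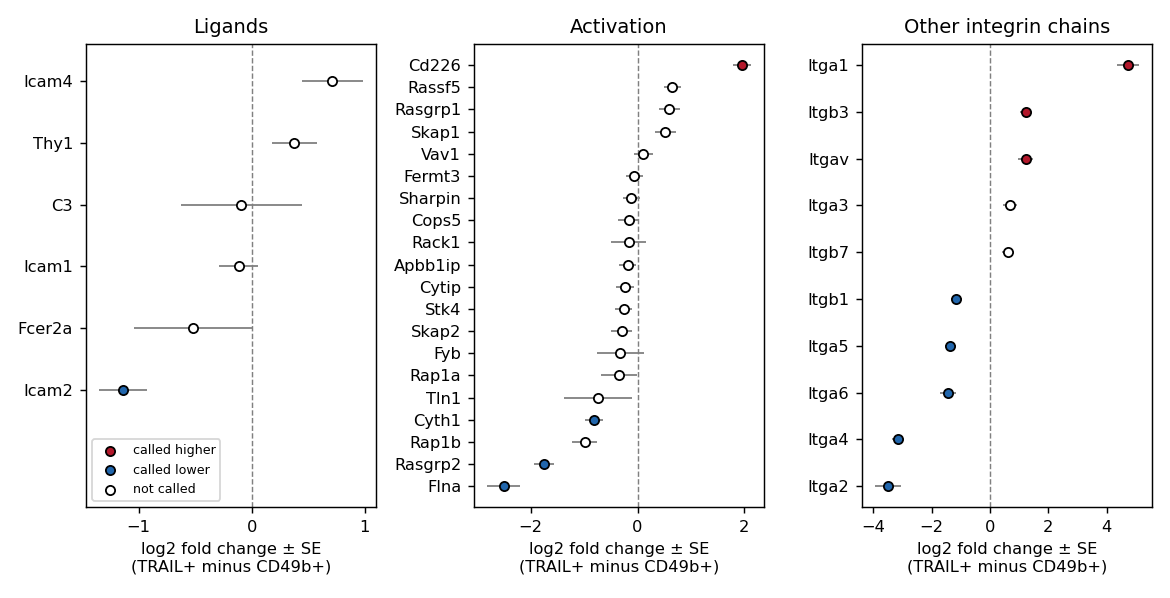
Log2 fold changes (TRAIL+ minus CD49b+) ± SE of the tested ligand genes, activation genes and other integrin chains, red where called higher, blue where called lower and white where not called. In the activation list Cd226 lies at 1.96 and Flna at -2.51, and among the other chains Itga1 lies at 4.74 and Itga2 at -3.49.

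The genes with the most similar profiles were read from the distance between log2(RPKM + 1) values centred on their mean over the 4 libraries. Nearest to Itgam were Kcnip3 (distance 0.233), Zeb2 (0.254) and Klhl30 (0.323). Nearest to Itgax were Shb (0.0721), Slc36a1 (0.0964) and Trp53i11 (0.0973). Nearest to Itgad were H1f0 (0.0735), Acsbg1 (0.103) and Cdc42ep1 (0.119). Zeb2, a transcription factor needed for NK cell maturation, stood at 0.431 and 0.0579 RPKM in TRAIL+ cells, against 27.0 and 22.4 RPKM in CD49b+ cells. H1f0, a linker histone gene, stood at 35.0 and 31.4 RPKM in TRAIL+ cells, against 4.64 and 5.88 RPKM in CD49b+ cells. Over 4 libraries in 2 groups such likeness mostly reflects a fold change of similar size.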

How the data were processed

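PolyA RNA of 4 libraries was compared. The authors deposited RPKM, per the file headers. TopHat 1.4.1 and build mm9 are named in the submitters' processing notes. How reads were counted, with which annotation and whether by strand, is not given in the sources used here, and a gene and its antisense partner may share reads. Groups and replicate numbers came from the titles.

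Rows were named from RefSeq (GRCm38.p6) by accession (20657), symbol (194) or synonym (65), and 109 kept the file's name. The depth was read from the RPKM steps: for 100% of 13681 rows above 0 a length was found at which all values were whole reads within a relative 1e-09, for 2000 of 2000 rows checked and for 1 of 2000 after random factors. These lengths can be wrong by a common factor. The reads worked out with them summed over the rows to 4068304 to 4557070, above the depth of each library. Why they exceeded it was not tested.

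Genes reaching 1 RPKM in 2 or more libraries were tested on log2(RPKM + 1), which understates changes of low genes, with limma 3.58.1 (R 4.3.3, trended prior, 2 residual and 3.51 prior degrees of freedom), TRAIL+ minus CD49b+. The fit was also run on simulated reads, and no outcome of that run is used here. Ratios are of group means. Members and lists were chosen with earlier results of these data known. Genes named were the members, their neighbours, the 3 nearest profiles, and up to 3 called genes a direction and the most abundant of each list. Markers covered myeloid, T, B, hepatocyte and endothelial cells. Alternatives are given below.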

Additional observations from a re-analysis of the deposited data

How the results depend on the processing

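Itgam and Itgad kept their direction and their call under all alternatives run, and no value reversed. Itgax lost its call without either CD49b+ library, at 0.95 to 1.22 over the 4 fits that leave out 1 library. Itgal ranged from -0.95 to -0.10, Itgb2 from -0.72 to -0.41, Itgam from -4.54 to -3.86 and Itgad from 2.35 to 2.64 over the same fits. Itgal passed without TRAIL+ replicate 1, and the gene length correction, chosen after seeing the data, brought Itgb2 past the threshold at -0.59. The cause was not tested. With 1 library left out, 245 to 777 genes were higher and 198 to 763 lower, against 478 and 388, and the length correction gave 712 and 594. Median scaling moved no library's median by over 0.0540 (log2).

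Replicate numbers appear in both groups, but the labels do not say that they mark a shared mouse or day. The deviations of same-numbered libraries correlated across genes (Pearson r = 0.563). With the replicate block 1049 genes were higher and 833 lower, and the activation list had 4 higher and 5 lower; no member's call changed with the block.

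The activation list had 1 to 3 genes higher and 2 to 4 lower with 1 library left out, and 3 higher after the length correction. The ligand list had 0 to 1 lower, and 0 with no RPKM minimum. The other integrin chains had 1 to 3 higher and 2 to 5 lower. The Itgam share differed by -22.7 percentage points, -25.8 from reads not per length and -26.9 with annotated lengths.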
